A study of Mus musculus with 8 samples.

Results

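The 32 genes described here encode the enzymes, transporters and regulatory subunits by which the liver breaks down glucose and fructose, makes glucose and stores it as glycogen. They were listed by name for their roles in these pathways, and all 32 were found among the 48432 genes of the deposited table. The tissue was the liver of wild-type C57BL/6 mice after 30 weeks of exposure, in 4 groups of 2 RNA-seq libraries, 8 in all. LL-PM2.5 mice lived in constant light and breathed PM2.5, the fine particles of polluted air that reach the deep lung. LD-PM2.5 mice breathed the same kind of air under a light/dark cycle, LL-FA mice had constant light and filtered air, and LD-FA mice had a light/dark cycle and filtered air. The series asks whether breathing polluted air disturbs circadian rhythm, next to constant light, which is known to do so. Whether the 2 libraries of a group are separate animals is not in the labels, and p-values may then measure technical spread only.

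The liver keeps blood glucose steady by running opposed pathways. After a meal, glucose enters through the transporter GLUT2 and is phosphorylated, then it is stored as glycogen or broken down to pyruvate. In fasting, glucagon and falling insulin raise the transcription of Pck1 and G6pc, whose enzymes stand at the start and the end of gluconeogenesis. These genes are known to follow feeding and the time of day in mouse liver, and the hour of collection is not given in the sources used here.

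Each library held between 22215000 and 31819000 fragments assigned to genes (5 digits). Of the 32 genes, 31 had at least 1 FPKM (fragments scaled to transcript length and library size) in 2 or more libraries and were tested among 11316 genes of the whole table. The summed FPKM of 8 hepatocyte markers lay between 18270 and 22250 in all 8 libraries. Other tissues were present in some of them. The sum of 8 skeletal muscle markers was 1.38 and 0.664 FPKM for LL-PM2.5, 0.587 and 1.01 for LD-PM2.5, 582 and 0.705 for LL-FA, and 303 and 34.1 for LD-FA. All 8 muscle markers were above 0 in LL-FA replicate 1 and in both LD-FA libraries, and Tnnt3, Tnnc2 and Pvalb were at 0 in some of the others. The sum of 9 pancreatic acinar markers was 19.3 and 336 FPKM for LL-PM2.5, 122 and 27.0 for LD-PM2.5, 17.8 and 27.4 for LL-FA, and 3433 and 34.7 for LD-FA. Cela1 held 18.8 of the 19.3 FPKM in LL-PM2.5 replicate 1 and 22.7 of the 27.0 in LD-PM2.5 replicate 2. It held 17.5 and 26.9 FPKM of the LL-FA sums and 34.0 of the 34.7 in LD-FA replicate 2. Every other acinar marker was at most 1.495 FPKM in these libraries. The sum of 5 adipocyte markers reached 30.2 FPKM in LL-FA replicate 1, against 3.22 to 7.50 in the other 7 libraries. Cidec was the largest part of this sum, at 17.6 FPKM in LL-FA replicate 1 and 1.69 to 7.45 in the other 7 libraries. In bulk liver, fewer cells of a type and less RNA per cell cannot be told apart.

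The promoters of 3 of these genes are shown because they had the largest differences among members with an unadjusted p under 0.05. Each runs from 250 bases before to 50 bases after the RefSeq start site on GRCm38.p6, in the direction of transcription, with any match to a searched motif in capitals. Pck1 encodes the cytosolic phosphoenolpyruvate carboxykinase, G6pc the catalytic subunit of glucose-6-phosphatase, and Pfkfb3 a bifunctional enzyme that makes fructose 2,6-bisphosphate. Of the 2 start sites given for Pfkfb3, the one whose window held a match is shown.
Pck1, chr2:173152823-173153122, plus strand: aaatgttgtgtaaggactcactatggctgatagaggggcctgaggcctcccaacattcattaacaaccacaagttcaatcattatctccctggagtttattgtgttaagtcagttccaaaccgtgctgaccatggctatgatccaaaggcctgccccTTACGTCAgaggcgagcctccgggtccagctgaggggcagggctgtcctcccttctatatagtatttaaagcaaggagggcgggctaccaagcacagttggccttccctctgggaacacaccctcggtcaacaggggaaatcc
G6pc, chr11:101367466-101367765, plus strand: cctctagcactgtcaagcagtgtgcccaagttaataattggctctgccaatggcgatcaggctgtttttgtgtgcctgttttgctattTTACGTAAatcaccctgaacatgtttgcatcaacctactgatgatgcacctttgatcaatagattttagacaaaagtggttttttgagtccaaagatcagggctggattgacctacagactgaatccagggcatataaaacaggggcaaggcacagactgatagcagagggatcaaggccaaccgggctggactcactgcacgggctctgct
Pfkfb3, chr2:11502041-11502340, minus strand: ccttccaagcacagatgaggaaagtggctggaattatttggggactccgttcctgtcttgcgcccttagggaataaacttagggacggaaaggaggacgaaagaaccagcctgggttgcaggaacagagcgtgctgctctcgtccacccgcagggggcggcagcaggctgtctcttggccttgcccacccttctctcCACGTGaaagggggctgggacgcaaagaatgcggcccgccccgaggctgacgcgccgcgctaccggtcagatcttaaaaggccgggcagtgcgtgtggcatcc
The capitals in Pck1 are TTACGTCA at -93 to -86, counted from the start site, the letters known as the cAMP response element in the rat gene. The capitals in G6pc are TTACGTAA at -162 to -155, and those in Pfkfb3 are the E-box CACGTG at -53 to -48. TTACGTCA, searched on both strands, occurred in 0.499% of 32851 promoter windows of the whole genome and TTACGTAA in 0.119%. CACGTG occurred in 7.15% of all windows and in 6 of the 44 windows of these genes, those of Khk, Ldha, Pcx, Pdk2, Pfkfb3 and Ppp1r3c. TGACGTCA was in 1 window, that of Ldha, and in 1.79% of all windows, and no window held TTATGTAA (0.938% of all windows) or GTAAACA (3.65%). Windows were found for 30 of the 32 genes, all but Ppp1r3b and Gys2. A match describes these letters and does not show that a factor binds there.

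**Figure D1:**
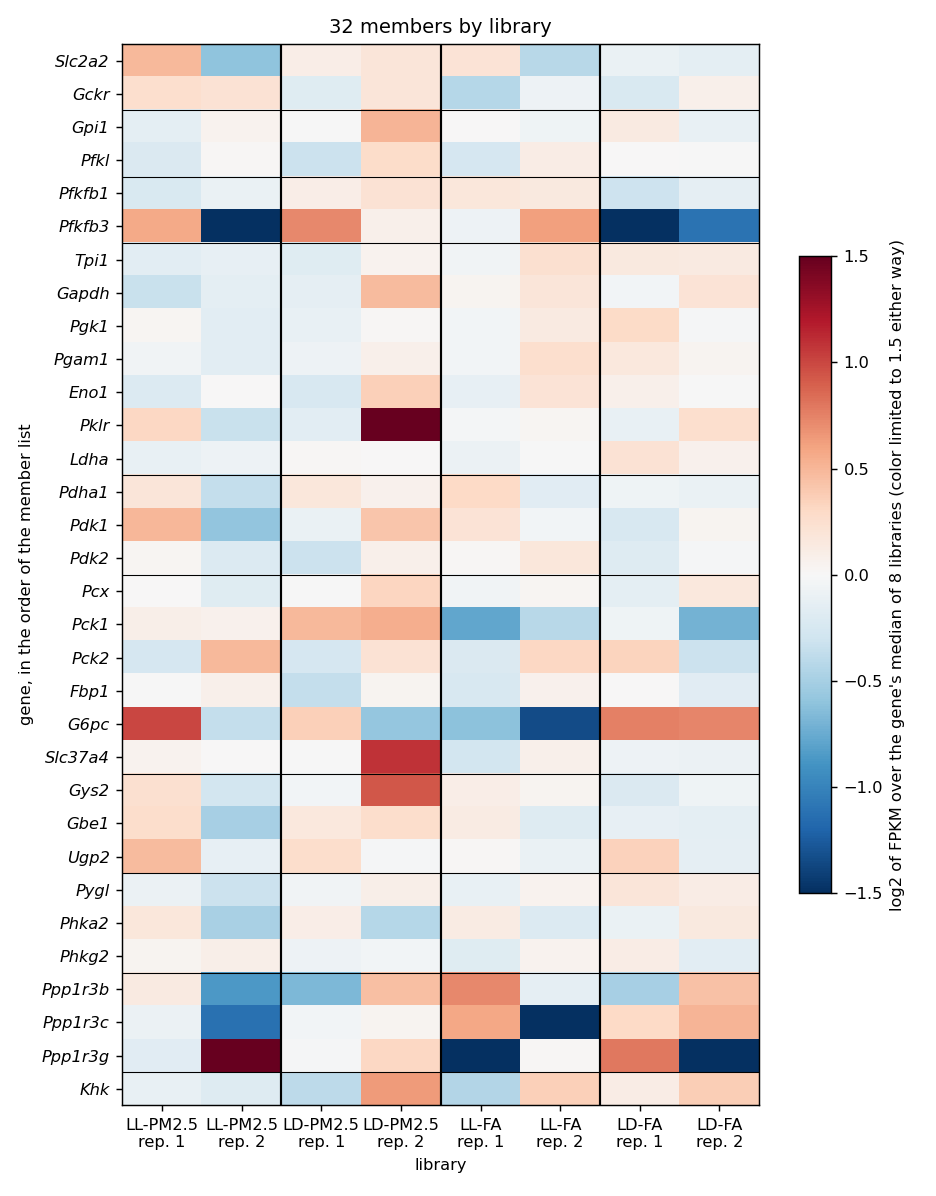
Level of each of the 32 genes in each library, as log2 of its FPKM over its own median of the 8 libraries, with color limited to 1.5 either way. Thick lines part the 4 groups and thin lines the roles. LD-PM2.5 replicate 2 was the highest library for 12 genes and LL-PM2.5 replicate 2 the lowest for 13. With counts scaled to library size (CPM) these were 14 and 10 of the 31 tested genes, and neither count was made over all genes.

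Gluconeogenesis held the members with the clearest pattern by group. Pck1 stood at 753 and 739 FPKM for LL-PM2.5, 992 and 1029 for LD-PM2.5, 412 and 531 for LL-FA, and 676 and 432 for LD-FA. All 4 PM2.5 libraries were above all 4 filtered-air libraries, and the libraries within each PM2.5 group lay close together. G6pc, which releases free glucose in the last step, stood at 218 and 84.5 FPKM for LL-PM2.5, 139.7 and 72.8 for LD-PM2.5, 70.7 and 42.8 for LL-FA, and 184 and 180.5 for LD-FA. The LD-FA libraries were close to each other and above both LL-FA libraries, whereas both PM2.5 groups were widely spread.

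The other 4 gluconeogenic members did not part the groups in this way. Slc37a4, the carrier that brings glucose 6-phosphate to G6pc, stood at 68.3 and 66.2 FPKM for LL-PM2.5, 65.6 and 140.0 for LD-PM2.5, 54.5 and 69.6 for LL-FA, and 62.8 and 62.0 for LD-FA. LD-PM2.5 replicate 2 was high alone, and the other 7 libraries lay between 54.5 and 69.6 FPKM. Fbp1, fructose-1,6-bisphosphatase, averaged 623 ± 25.1 FPKM for LL-PM2.5, 549 ± 106 for LD-PM2.5, 574 ± 84.9 for LL-FA and 576 ± 50.03 for LD-FA (SD, n = 2 each, as for all means given so). Pcx, the pyruvate carboxylase that opens the pathway in mitochondria, averaged 99.1 ± 9.06 FPKM for LL-PM2.5, 118 ± 18.7 for LD-PM2.5, 105 ± 4.16 for LL-FA and 106 ± 15.7 for LD-FA. Pck2, the mitochondrial form of Pck1, averaged 1.08 ± 0.383 FPKM for LL-PM2.5, 0.967 ± 0.220 for LD-PM2.5, 1.02 ± 0.255 for LL-FA and 0.999 ± 0.319 for LD-FA, so the cytosolic form made up nearly all phosphoenolpyruvate carboxykinase RNA per length.

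**Figure D2:**
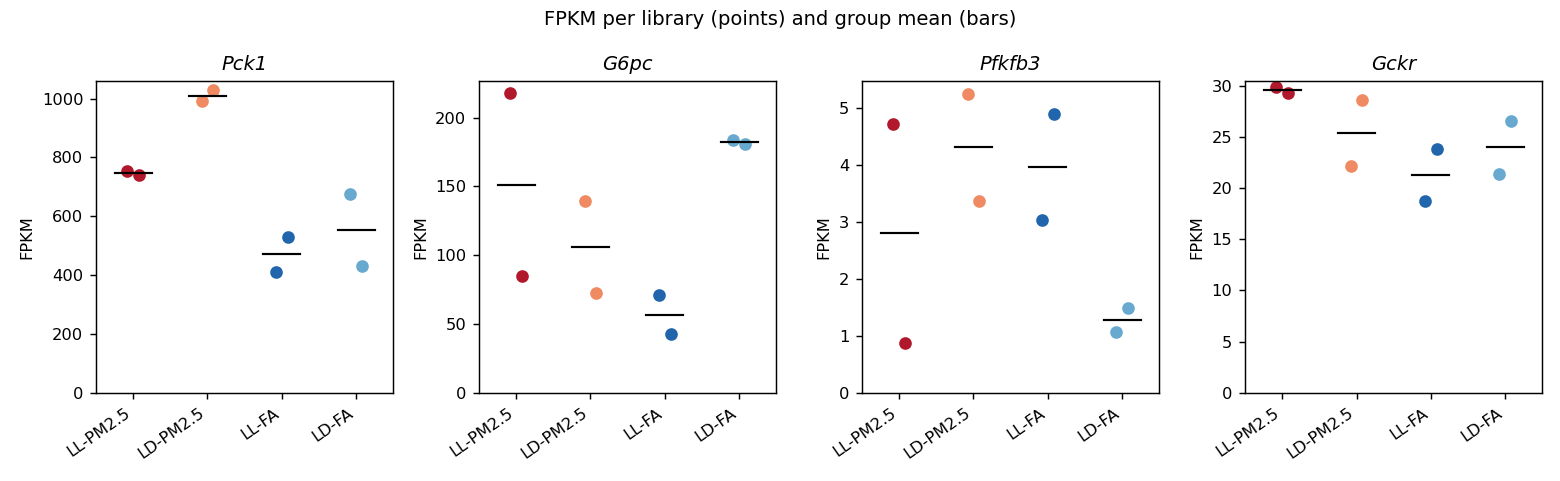
FPKM of Pck1, G6pc, Pfkfb3 and Gckr in each library (points, 2 per group) with the group mean (bars), on axes that start at 0. Pck1 lay between 739 and 1029 FPKM in the PM2.5 libraries and between 412 and 676 in filtered air, and G6pc spanned 84.5 to 218 FPKM within LL-PM2.5 alone.

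Glucose entry and its control were represented by Slc2a2, with little order by group, and Gckr, which was highest in LL-PM2.5. Slc2a2, which encodes GLUT2, stood at 74.6 and 35.2 FPKM for LL-PM2.5, 57.1 and 60.7 for LD-PM2.5, 61.7 and 40.1 for LL-FA, and 49.8 and 48.3 for LD-FA. In FPKM both constant-light groups were spread wider than either light/dark group, but in CPM, counts scaled to library size as in the test, LL-FA was the narrowest group, at 378 and 338 CPM. Gckr, a regulatory protein of glucose phosphorylation, stood at 29.9 and 29.3 FPKM for LL-PM2.5, 22.2 and 28.6 for LD-PM2.5, 18.7 and 23.8 for LL-FA, and 21.4 and 26.5 for LD-FA. Both LL-PM2.5 libraries were above all other 6, of which LD-PM2.5 replicate 2 came nearest.

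Fructose 2,6-bisphosphate is the signal that turns glycolysis up and gluconeogenesis down, and its enzymes on the list were Pfkfb1 and Pfkfb3. Pfkfb1, the liver form of the bifunctional enzyme, stood at 13.1 and 14.3 FPKM for LL-PM2.5, 16.5 and 17.8 for LD-PM2.5, 17.2 and 17.0 for LL-FA, and 12.4 and 14.0 for LD-FA. LD-PM2.5 and LL-FA lay between 16.5 and 17.8 FPKM, above every library of the other 2 groups. In CPM LL-PM2.5 replicate 2, at 42.3, was slightly above LD-PM2.5 replicate 1, at 41.9. Pfkfb3, a form found in many tissues that favors the synthesis of the signal, stood at 4.72 and 0.875 FPKM for LL-PM2.5, 5.26 and 3.36 for LD-PM2.5, 3.03 and 4.90 for LL-FA, and 1.07 and 1.49 for LD-FA. Both LD-FA libraries were low, both of LD-PM2.5 and both of LL-FA were higher, and the LL-PM2.5 libraries lay far apart.

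Among the 9 glycolytic members, Pklr varied most between libraries. Pklr, the liver pyruvate kinase, stood at 60.4 and 38.6 FPKM for LL-PM2.5, 43.7 and 155 for LD-PM2.5, 47.9 and 49.7 for LL-FA, and 45.2 and 58.2 for LD-FA. LD-PM2.5 replicate 2 was far above all others, which lay between 38.6 and 60.4 FPKM. Ldha, lactate dehydrogenase A, stood at 447 and 456 FPKM for LL-PM2.5, 488 and 483 for LD-PM2.5, 452 and 482 for LL-FA, and 563 and 506 for LD-FA. Its 4 constant-light libraries, at most 482 FPKM, were all below its 4 light/dark libraries, at least 483 FPKM. In CPM they overlapped, with 943 CPM in LL-FA replicate 2 against 937 and 927 CPM in LD-PM2.5. Tpi1, triosephosphate isomerase, averaged 226 ± 3.31 FPKM for LL-PM2.5, 239 ± 27.3 for LD-PM2.5, 268 ± 39.0 for LL-FA and 275 ± 1.62 for LD-FA.

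In Gpi1, Pfkl, Pgk1, Pgam1 and Eno1 no group stood clear of all the others. Gpi1, which interconverts glucose and fructose 6-phosphates, averaged 29.6 ± 2.89 FPKM for LL-PM2.5, 37.0 ± 9.32 for LD-PM2.5, 30.0 ± 1.11 for LL-FA and 31.0 ± 3.81 for LD-FA. Pfkl, the liver phosphofructokinase, averaged 8.55 ± 0.966 FPKM for LL-PM2.5, 9.16 ± 2.65 for LD-PM2.5, 8.77 ± 1.54 for LL-FA and 9.14 ± 0.0517 for LD-FA. Pgk1, phosphoglycerate kinase, averaged 15.5 ± 1.45 FPKM for LL-PM2.5, 15.6 ± 1.02 for LD-PM2.5, 16.7 ± 1.43 for LL-FA and 17.9 ± 2.64 for LD-FA. Pgam1 follows it in the pathway as phosphoglycerate mutase. It averaged 12.1 ± 0.609 FPKM for LL-PM2.5, 13.0 ± 1.01 for LD-PM2.5, 14.1 ± 2.03 for LL-FA and 13.9 ± 0.800 for LD-FA. Eno1, enolase, averaged 60.5 ± 6.07 FPKM for LL-PM2.5, 68.9 ± 20.1 for LD-PM2.5, 66.8 ± 10.7 for LL-FA and 66.4 ± 2.39 for LD-FA. In Gpi1, Pfkl and Eno1 LD-PM2.5 replicate 2 was the highest of the 8 libraries.

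Gapdh, glyceraldehyde-3-phosphate dehydrogenase, was listed at only 0.838 ± 0.0793 FPKM for LL-PM2.5, 1.14 ± 0.340 for LD-PM2.5, 1.07 ± 0.0685 for LL-FA and 1.05 ± 0.131 for LD-FA. This level rests on 41 to 62 fragments per library, 375 in all. Both LL-PM2.5 libraries, at 0.782 and 0.894 FPKM, were below all others, which were at 0.897 or more. In CPM LL-PM2.5 replicate 2, at 1.63, was above LD-PM2.5 replicate 1, at 1.57. In GENCODE vM21, 71 other genes have a transcript at least 95% identical to that of Gapdh over at least 50% of its length, and 68 of them in the table held 3928 fragments together. The deposited level of Gapdh is uncertain at these counts, and whether reads were split among the copies was not tested. Eno1 has 3 such copies with 5778 fragments against its own 31257, Gpi1 has 1 with 6441 against 24732, and Pgk1 has 2 with 105 against 7950. Counting by strand is not given in the sources used here. Exons of other genes on the opposite strand covered 22% of the exon bases of Pklr, 21.9% of Phkg2, 16.1% of Pdha1 and 11.5% of Gpi1, and these partners had a median of at most 0.293 FPKM.

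The entry of pyruvate into the citric acid cycle was represented by 3 members. Pdha1, a subunit of pyruvate dehydrogenase, averaged 48.8 ± 12.8 FPKM for LL-PM2.5, 55.4 ± 2.84 for LD-PM2.5, 54.2 ± 12.4 for LL-FA and 48.1 ± 0.876 for LD-FA. Pdk1 and Pdk2 are kinases that switch this enzyme off. Pdk1 averaged 16.8 ± 8.63 FPKM for LL-PM2.5, 18.3 ± 4.60 for LD-PM2.5, 17.2 ± 2.08 for LL-FA and 15.2 ± 2.12 for LD-FA. Pdk2 averaged 39.3 ± 4.50 FPKM for LL-PM2.5, 38.7 ± 7.67 for LD-PM2.5, 44.6 ± 3.18 for LL-FA and 38.7 ± 3.25 for LD-FA. In Pdk1 the widest gap between replicates was in LL-PM2.5.

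Of the glycogen-synthesizing members, Gys2 repeated the outlying library of Pklr. Gys2, the liver glycogen synthase, stood at 40.1 and 28.1 FPKM for LL-PM2.5, 33.1 and 64.5 for LD-PM2.5, 36.2 and 34.8 for LL-FA, and 29.1 and 32.5 for LD-FA. LD-PM2.5 replicate 2 was the high one and its own replicate lay among the other groups. Gbe1, the branching enzyme, averaged 38.9 ± 14.1 FPKM for LL-PM2.5, 47.2 ± 2.31 for LD-PM2.5, 40.0 ± 6.32 for LL-FA and 37.0 ± 0.452 for LD-FA. Ugp2, which makes the UDP-glucose used by Gys2, averaged 137 ± 39.8 FPKM for LL-PM2.5, 129.6 ± 17.5 for LD-PM2.5, 115 ± 6.48 for LL-FA and 129 ± 30.1 for LD-FA.

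Glycogen breakdown was measured through Pygl and the kinase that activates it. Pygl, the liver glycogen phosphorylase, stood at 147 and 124 FPKM for LL-PM2.5, 149.7 and 166 for LD-PM2.5, 144 and 162 for LL-FA, and 177 and 169 for LD-FA. Both LD-FA libraries were above the other 6 in FPKM, but in CPM LD-PM2.5 replicate 2, at 731, was above LD-FA replicate 1, at 719. The kinase was represented by its regulatory subunit Phka2 and its catalytic subunit Phkg2. Phka2 averaged 3.96 ± 1.26 FPKM for LL-PM2.5, 3.92 ± 0.9997 for LD-PM2.5, 4.21 ± 0.696 for LL-FA and 4.40 ± 0.539 for LD-FA. Phkg2 averaged 12.4 ± 0.266 FPKM for LL-PM2.5, 11.3 ± 0.191 for LD-PM2.5, 11.3 ± 1.29 for LL-FA and 11.7 ± 1.58 for LD-FA.

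Ppp1r3b, Ppp1r3c and Ppp1r3g are subunits that bring protein phosphatase 1 to glycogen. In Ppp1r3b and Ppp1r3c the widest gap between replicates exceeded the range of the group means in log2 CPM. Ppp1r3b, the main such subunit of liver, stood at 85.7 and 43.1 FPKM for LL-PM2.5, 48.9 and 107 for LD-PM2.5, 129 and 71.5 for LL-FA, and 55.4 and 106 for LD-FA. In every group 1 library was well above the other, and all 4 groups overlapped. Ppp1r3c, a subunit found in several tissues, stood at 31.2 and 15.4 FPKM for LL-PM2.5, 32.2 and 34.3 for LD-PM2.5, 49.6 and 9.26 for LL-FA, and 40.8 and 47.2 for LD-FA, and its LL-FA libraries held the highest and the lowest FPKM of all 8, while in CPM LD-FA replicate 2 was the highest. Ppp1r3g, a liver subunit known from mice to follow feeding, was the member left untested, at 0.284 and 2.27 FPKM for LL-PM2.5, 0.313 and 0.396 for LD-PM2.5, 0.0897 and 0.323 for LL-FA, and 0.553 and 0.0298 for LD-FA. Those levels rest on 2 to 132 fragments per library, and LL-PM2.5 replicate 2 was the high one. Khk, ketohexokinase, which takes fructose past the control point of glycolysis, stood at 195 and 184 FPKM for LL-PM2.5, 160.2 and 328 for LD-PM2.5, 156 and 269 for LL-FA, and 227 and 271 for LD-FA, again with LD-PM2.5 replicate 2 the highest.

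**Figure D3:**
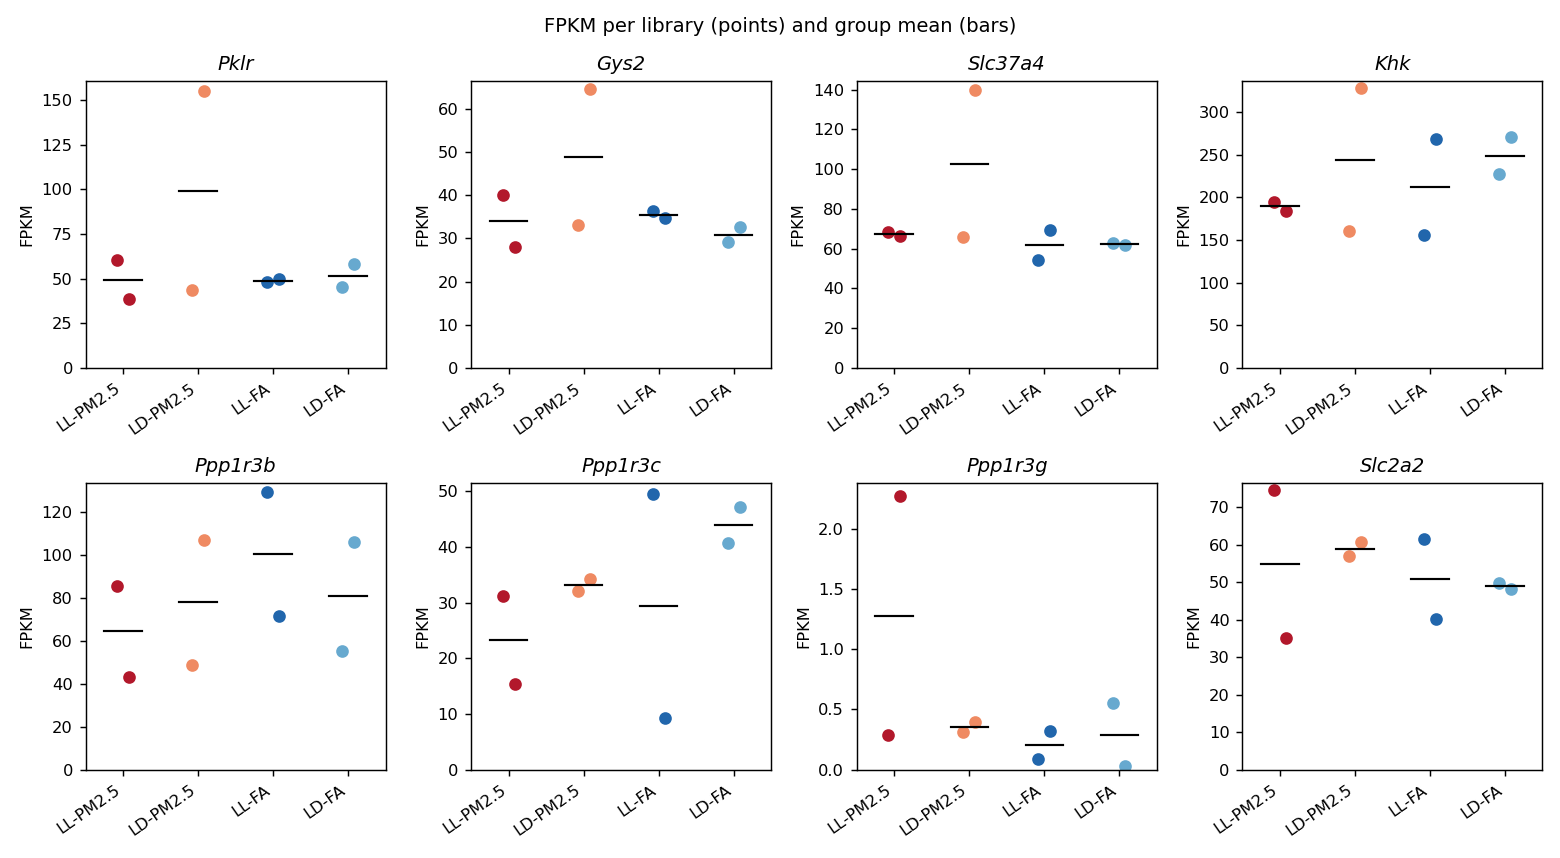
FPKM of Pklr, Gys2, Slc37a4, Khk, Ppp1r3b, Ppp1r3c, Ppp1r3g and Slc2a2 in each library (points, 2 per group) with the group mean (bars), on axes that start at 0. In Pklr, Gys2, Slc37a4 and Khk the upper LD-PM2.5 point, replicate 2, stands above all other libraries, and in Ppp1r3b each group has a high and a low library.

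At the median, replicates of these genes lay further apart than those of all genes, and their group means lay slightly closer together. The largest gap between replicates of a group had a median of 0.56 on the log2 scale of CPM over the 31 tested members and 0.40 over all 11316 genes. The range of the 4 group means had a median of 0.28 over the members and 0.32 over all genes. This range exceeded the largest gap in 7 of 31 members, or 22.6%, and in 33.7% of all genes. The largest gap fell within LL-PM2.5 for 9 members, within LD-PM2.5 for 13, within LL-FA for 6 and within LD-FA for 3. In FPKM, LD-PM2.5 replicate 2 was the highest of the 8 libraries for 12 of 32 members. In CPM it was so for 14 of 31, and it was the lowest for 0 on both scales. These counts, like those of the largest gap, were not made over all genes. Whether they are particular to this list was not tested. Outside the list LD-PM2.5 replicate 2 was also the highest for Tkfc, the triokinase of the fructose route. Tkfc was at 251 FPKM there, against 96.4 to 126 in the other 7 libraries. Tkfc, Pklr, Gys2 and Khk were named after their values were seen.

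The comparison of PM2.5 with filtered air under a light/dark cycle asks what polluted air did to mice with an intact light schedule. Pck1 and Pfkfb3 were higher in LD-PM2.5 than in LD-FA before adjustment over all genes, and neither passed after it. The log2 fold change of Pck1 was 0.88 ± 0.23 (SE, edgeR quasi-likelihood test, adjusted p = 0.4156), and that of Pfkfb3 was 1.67 ± 0.65 (adjusted p = 0.4448). They were 2 of 31 members with an unadjusted p under 0.05, which 11.0% of all tested genes reached, 6.78% higher and 4.18% lower, and 0 members and 0% of all genes passed at an adjusted p under 0.05. In FPKM, the scale of such counts unless CPM is named, the groups did not overlap in 13 members, 8 higher and 5 lower, against 43.4% of all genes, 24.6% higher and 18.7% lower. A positive log2 fold change was found in 17 members and 48.4% of all genes. The median log2 fold change was 0.012 over the members and -0.012 over all genes.

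DESeq2 gave Pck1 an adjusted p of 0.008322 in the same comparison, within a range of 0.003496 to 0.6787 over the alternative settings. Called by DESeq2 were 1 member and 151 genes in all. The number of members at an unadjusted p under 0.05 was 6, of 1573 genes in all, when LD-PM2.5 replicate 1 was left out, and 1 when its partner or either LD-FA library was, of 544, 395 and 1036 genes, against 1240 genes with all libraries. The Pck1 change lay between 0.61 and 1.204 when single libraries were left out and stayed under an unadjusted p of 0.05, with 0.61 without LD-FA replicate 2. That of Pfkfb3 lay between 1.38 and 1.99, with an unadjusted p above 0.05 without either LD-PM2.5 library or either LD-FA library.

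Other genes of the pathways gave a mixed picture in this comparison. At an unadjusted p under 0.05, 1 of 19 tested genes of other glycolytic steps was higher and 2 were lower, 1 of 17 for pyruvate and gluconeogenesis was higher and 0 were lower, and 1 of 18 for glycogen was higher and 2 were lower. For fructose, ChREBP and the pentose phosphate route 2 of 15 were higher and 0 lower, and for the hormone regulators 2 of 15 were higher and 1 was lower. No gene of these lists passed at an adjusted p under 0.05. The smallest p values were those of Glyctk, glycerate kinase, at 0.56 ± 0.18 (edgeR adjusted p = 0.4269), and H6pd, the glucose-6-phosphate dehydrogenase of the endoplasmic reticulum, at 0.51 ± 0.17 (adjusted p = 0.4276). Pfkfb2, a further bifunctional enzyme of fructose 2,6-bisphosphate, was at 1.26 ± 0.43 and Foxo1, the insulin-restrained factor known to act on G6pc and Pck1, at 0.49 ± 0.17 (edgeR adjusted p = 0.4382 for each). With single libraries left out, Glyctk and Pfkfb2 had an unadjusted p under 0.05 in 6 of 8 fits and H6pd and Foxo1 in 5 of 8, and the change of Foxo1 was 0.23 without LD-PM2.5 replicate 2.

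Under constant light, the comparison of PM2.5 with filtered air asks whether polluted air adds to a disturbed light schedule. G6pc, Pck1 and Gckr were higher in LL-PM2.5 than in LL-FA at an unadjusted p under 0.05. They were 3 of 31 members, against 4.83% of all genes, 2.12% higher and 2.71% lower, and 0 members and 0% of all genes passed after adjustment. The log2 fold change of G6pc was 1.41 ± 0.43 (edgeR adjusted p = 0.9891). It was 0.69 when LL-PM2.5 replicate 1, the high library, was left out and 1.88 when its partner was. Without LL-FA replicate 2 it was 1.13, and this value and that of 0.69 had an unadjusted p above 0.05. Pck1 was at 0.66 ± 0.23 (edgeR adjusted p = 0.9891). Its unadjusted p was above 0.05 without LL-FA replicate 1, where the change was 0.50, and without LL-PM2.5 replicate 2, where it was 0.63. Gckr was at 0.47 ± 0.18 (edgeR adjusted p = 0.9891), and its unadjusted p was above 0.05 without either LL-PM2.5 library and without LL-FA replicate 1, where the change was 0.32.

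The groups of this comparison did not overlap in 7 members, 3 higher and 4 lower, against 21.2% of all genes, 9.65% higher and 11.6% lower. In CPM these were 12 members, against 30% of all genes. A positive log2 fold change was found in 10 members and 50.7% of all genes. The median log2 fold change was -0.069 over the members and 0.0026 over all genes. DESeq2 called 1 member, G6pc, at an adjusted p of 0.0186, within a range of 3.23e-06 to 1 over the settings, and 58 genes in all. Without LL-PM2.5 replicate 2 the number at an unadjusted p under 0.05 was 1 member of 255 genes in all, against 547 genes with all libraries.

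Among the other pathway genes, Irs2, Klf15, Igfbp1 and Got1 had the smallest p in this comparison, and the smallest adjusted p over all genes was 0.1131 (edgeR). Irs2, the insulin receptor substrate induced in fasting liver, was at 2.61 and 4.83 FPKM for LL-PM2.5, 4.33 and 4.05 for LD-PM2.5, 0.852 and 1.38 for LL-FA, and 2.44 and 2.67 for LD-FA. Every LL-PM2.5 library was above both LL-FA libraries, with a log2 fold change of 1.77 ± 0.32 (edgeR adjusted p = 0.83). Klf15, a factor known to promote amino acid use for gluconeogenesis, was at 72.9 and 78.5 FPKM for LL-PM2.5, 66.2 and 70.9 for LD-PM2.5, 47.0 and 51.7 for LL-FA, and 51.2 and 59.5 for LD-FA. Its 4 PM2.5 libraries were above its 4 filtered-air libraries, and its change under constant light was 0.62 ± 0.12 (edgeR adjusted p = 0.83). Igfbp1, a secreted protein that insulin represses, was at 9.55 and 56.1 FPKM for LL-PM2.5, 18.5 and 13.9 for LD-PM2.5, 2.37 and 3.23 for LL-FA, and 28.6 and 11.3 for LD-FA, with a change of 3.601 ± 0.85 (edgeR adjusted p = 0.9891) that was 1.72 without LL-PM2.5 replicate 2. Got1, the cytosolic aspartate aminotransferase, was at 0.97 ± 0.27 (adjusted p = 0.9891), and at 0.60 with an unadjusted p above 0.05 without LL-PM2.5 replicate 2.

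In those lists, 0 of 19 genes of other glycolytic steps were higher and 3 were lower, and 3 of 17 for pyruvate and gluconeogenesis were higher and 0 lower. For glycogen 0 of 18 were higher and 2 lower, for fructose, ChREBP and the pentose phosphate route 1 of 15 was higher and 1 lower, and for the regulators 3 of 15 were higher and 0 lower, all at an unadjusted p under 0.05. The 5 lower genes of the glycolytic and glycogen lists were Ldhb, Pgam2, Eno3, Pygm and Gys1, named after their values were seen. Each was highest in LL-FA replicate 1, the library with 582 FPKM of muscle markers, and the part of muscle RNA in their differences was not tested.

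**Figure D4:**
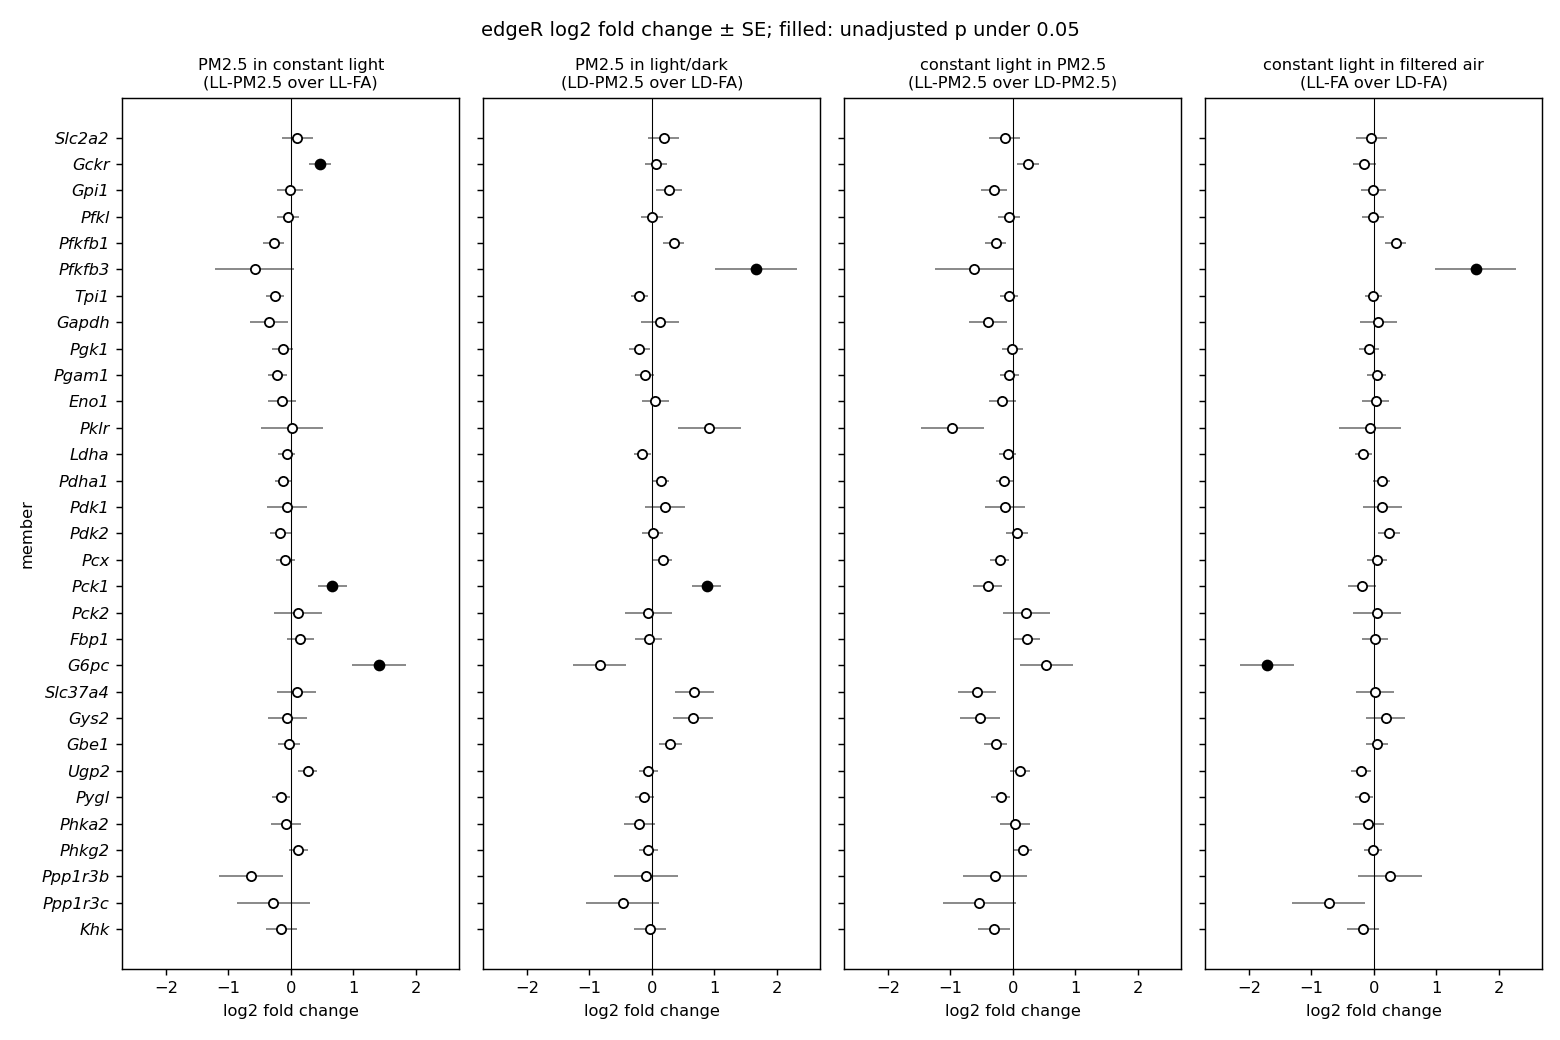
Log2 fold change ± SE of the 31 tested members from the edgeR quasi-likelihood fit in the 4 pairwise comparisons, with filled points for an unadjusted p under 0.05. Filled points are Pck1, G6pc and Gckr for PM2.5 in constant light, Pck1 and Pfkfb3 for PM2.5 in light/dark, none for constant light in PM2.5, and Pfkfb3 and G6pc for constant light in filtered air.

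Averaged over both light schedules, PM2.5 against filtered air gave 1 member at an unadjusted p under 0.05, against 10.0% of all genes, 5.54% higher and 4.50% lower. That member was Pck1, at 0.77 ± 0.16 (SE, edgeR adjusted p = 0.3615). Of all genes 2, or 0.0177%, passed at an adjusted p under 0.05, and 0 members did. Pck1 was the member whose groups of 4 did not overlap, 1 of 31, against 3.40% of all genes, 1.59% higher and 1.81% lower. Leaving out single libraries gave changes between 0.64 and 0.93, each at an unadjusted p under 0.05. Without LL-FA replicate 1 and LD-FA replicate 1 together, the libraries with the most muscle RNA, the Pck1 change was 0.86. DESeq2 gave Pck1 an adjusted p of 0.000192, within a range of 8.203e-05 to 0.529 over the settings, and called 161 genes in all.

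The number of members at an unadjusted p under 0.05 in this averaged comparison was 5 without LD-PM2.5 replicate 1, 3 without either LL-FA library, and 2 without replicate 2 of LL-PM2.5, of LD-PM2.5 or of LD-FA. Over all genes that number was 1136 with all libraries, 1415 without LD-PM2.5 replicate 1 and between 750 and 1165 in the other 5 of these fits. All 6 gluconeogenic members had a positive log2 fold change in this average, from 0.029 to 0.77, as did 5 of 6 under constant light and 3 of 6 under light/dark. Those of G6pc, Pcx, Fbp1 and Pck2 were smaller than their SE, and 2 of the 9 glycolytic members were positive. Over all 31 members 18 were positive, and 49.5% of all genes were. The median was 0.033 over the members and -0.0022 over all genes. Among the regulators Klf15 was at 0.47 ± 0.08 (edgeR adjusted p = 0.3247), and Irs2 at 1.24 ± 0.22 (adjusted p = 0.3247). Txnip, a glucose-induced gene that ChREBP is known to drive, was at 0.37 ± 0.10 (edgeR adjusted p = 0.3959), with its 4 PM2.5 libraries above its 4 filtered-air libraries.

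The lower genes of this average included forms abundant in muscle. At an unadjusted p under 0.05, 1 of 19 genes of other glycolytic steps was higher and 5 were lower, and 1 of 18 for glycogen was higher and 4 were lower. The counts were 1 higher and 0 lower of 17 for pyruvate and gluconeogenesis, 2 and 1 of 15 for fructose, ChREBP and the pentose phosphate route, and 3 and 1 of 15 for the regulators. Pgam2, the muscle phosphoglycerate mutase and the fourth of these genes by p, was at 0 and 0.0780 FPKM for LL-PM2.5, 0 and 0 for LD-PM2.5, 17.1 and 0.0490 for LL-FA, and 9.59 and 0.675 for LD-FA. Its fold change is not given because 3 of the 4 PM2.5 libraries were at 0. Pygm, the muscle glycogen phosphorylase, was at 0.371 and 0.411 FPKM for LL-PM2.5, 0.403 and 0.381 for LD-PM2.5, 11.8 and 0.300 for LL-FA, and 5.57 and 0.914 for LD-FA. Pfkm, the muscle phosphofructokinase, was at 4.93 and 4.17 FPKM for LL-PM2.5, 4.07 and 4.69 for LD-PM2.5, 12.5 and 4.97 for LL-FA, and 7.65 and 5.26 for LD-FA. The summed muscle markers, at 582 and 303 FPKM in LL-FA replicate 1 and LD-FA replicate 1 and at most 34.1 elsewhere, were high in the same libraries as Pgam2, Pygm and Pfkm. Their part in these differences was not tested.

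**Figure D5:**
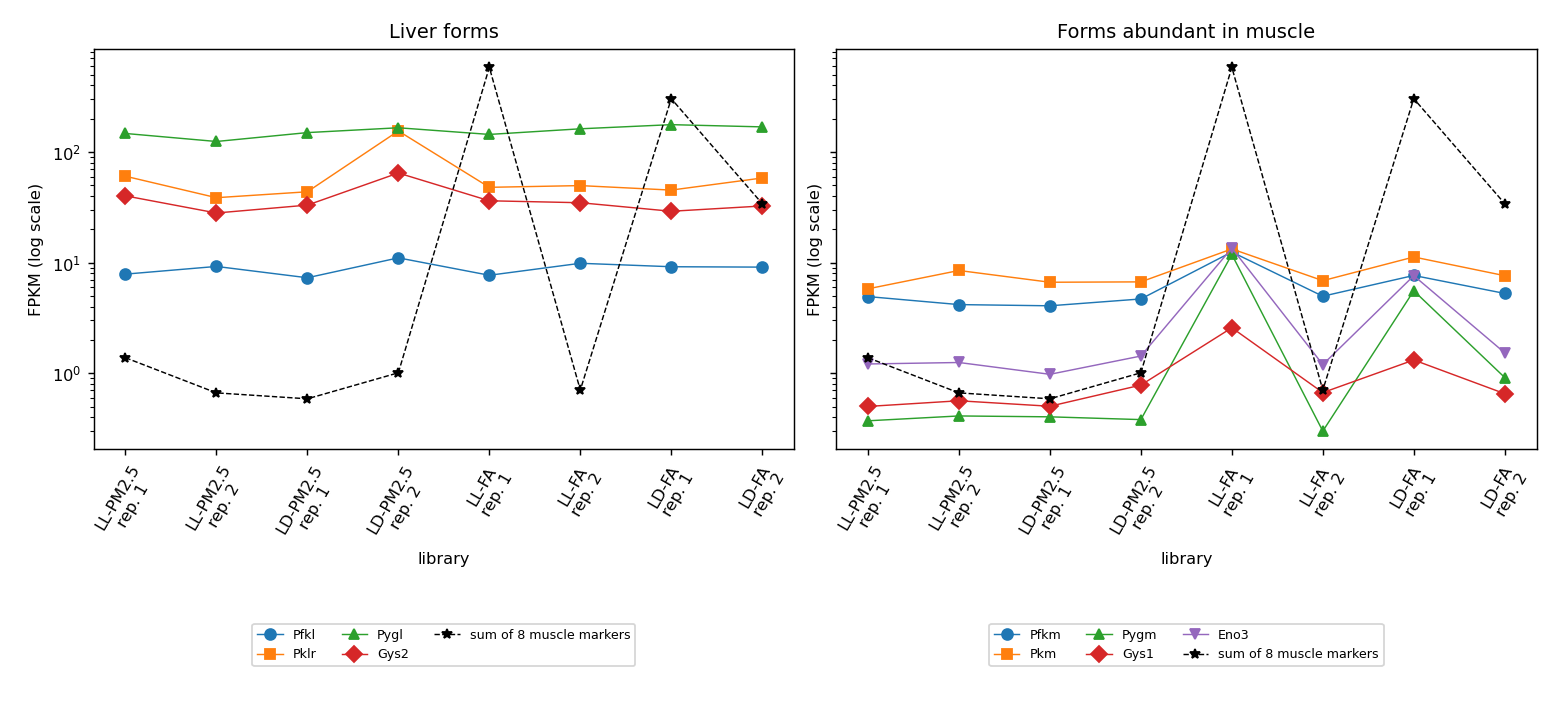
FPKM on a log axis in each library for the liver forms Pfkl, Pklr, Pygl and Gys2 (left) and for forms abundant in muscle, Pfkm, Pkm, Pygm, Gys1 and Eno3 (right), with the sum of 8 muscle markers (stars, both panels). Pygm and Eno3 were highest in LL-FA replicate 1 and LD-FA replicate 1, as was the marker sum, and Pygl stayed between 124 and 177 FPKM in all 8 libraries.

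Liver and muscle forms of the same step took different levels by library. Eno3, the muscle enolase, was at 13.5 FPKM in LL-FA replicate 1 and 7.62 in LD-FA replicate 1, against 0.978 to 1.53 in the other 6. Pkm, the pyruvate kinase of muscle and most other tissues, was at 13.3 and 11.2 FPKM in those libraries, against 5.79 to 8.49. Gys1, the muscle glycogen synthase, was at 2.58 and 1.32 FPKM, against 0.501 to 0.781. These forms were named after their values were seen. The members Pfkl, Pklr, Pygl and Gys2 did not have their highest level in LL-FA replicate 1, and of these 4 LD-FA replicate 1 was the highest library for Pygl in FPKM.

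Constant light was also compared with the light/dark cycle in filtered air, where the light schedules differ without polluted air. G6pc was lower and Pfkfb3 higher in LL-FA than in LD-FA at an unadjusted p under 0.05, 2 of 31 members against 2.74% of all genes, 1.19% higher and 1.55% lower. After adjustment 0 members and 0% of all genes passed. The log2 fold change of G6pc was -1.71 ± 0.43 (SE, edgeR adjusted p = 1), and it stayed between -2.04 and -1.42 and under an unadjusted p of 0.05 when single libraries were left out. DESeq2 gave it an adjusted p of 0.0006514, within a range of 2.994e-08 to 1 over the settings, the 1 member among 43 genes it called. Pfkfb3 was at 1.63 ± 0.65 (edgeR adjusted p = 1). Its unadjusted p was above 0.05 without either LD-FA library, either LD-PM2.5 library, or LL-FA replicate 2, and its change was 1.16 without the last of these.

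The groups of this comparison did not overlap in 7 members, 4 higher and 3 lower, against 21.9% of all genes, 10.7% higher and 11.3% lower. A positive log2 fold change was found in 15 members and 50.1% of all genes. The median was -0.0071 over the members and 0.00047 over all genes. The number of members at an unadjusted p under 0.05 was 1 without either LD-PM2.5 library or either LD-FA library, where all genes gave between 116 and 345, against 310 with all libraries. All 8 tested pancreatic markers were lower in LL-FA than in LD-FA at an unadjusted p under 0.05, with a marker sum of 17.8 and 27.4 FPKM in LL-FA and 3433 and 34.7 FPKM in LD-FA. G6pc itself was at 184 FPKM in the LD-FA library with 3433 FPKM of these markers and at 181 FPKM in the one with 34.7. The part of pancreatic RNA in the difference of G6pc was not tested.

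Of the other pathway genes, Irs2, Igfbp1 and Irs1 were lower in LL-FA than in LD-FA before adjustment, while 5 of the 15 regulators tested had a positive log2 fold change. Irs2 was at -1.17 ± 0.32 (edgeR adjusted p = 1), Igfbp1 at -2.82 ± 0.83 (adjusted p = 1) and Irs1, a further insulin receptor substrate, at -0.36 ± 0.15 (adjusted p = 1). Without LD-FA replicate 1 Igfbp1 was at -2.04, and without LL-FA replicate 1 Irs2 was at -0.88, both with an unadjusted p above 0.05. Stbd1, a glycogen-binding protein, was at 0.33 ± 0.14 (edgeR adjusted p = 1). With single libraries left out, Irs1 had an unadjusted p under 0.05 in 3 of 8 fits and Stbd1 in 5 of 8. These were 3 of 15 regulators, all lower, and 1 of 18 glycogen genes, higher. At an unadjusted p under 0.05, 0 genes were counted in the lists of other glycolytic steps, of pyruvate and gluconeogenesis, and of fructose, ChREBP and the pentose phosphate route. The comparisons of PM2.5 in constant light and of constant light in filtered air share the LL-FA libraries, in which G6pc, Irs2 and Igfbp1 were low, and the comparisons of PM2.5 in light/dark and of constant light in filtered air share the LD-FA libraries, in which Pfkfb3 was low.

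Within PM2.5, constant light against the light/dark cycle gave 0 of 31 members at an unadjusted p under 0.05, where 9.23% of all genes reached it, 3.54% higher and 5.68% lower, and 0 members and 0% of all genes after adjustment. The groups did not overlap in 8 members, 2 higher and 6 lower, against 30.7% of all genes, 12.3% higher and 18.3% lower. Pck1 was among the lower ones, at 753 and 739 FPKM in LL-PM2.5 and 992 and 1029 FPKM in LD-PM2.5. All 9 glycolytic members had a negative log2 fold change, from -0.97 to -0.0057, with a median size of 0.085 and a median SE of 0.18. Over all 31 members 8 were positive, and over all genes 51.1% were. The median was -0.13 over the members and 0.0073 over all genes. The most negative was that of Pklr, which LD-PM2.5 replicate 2 held at 155 FPKM. DESeq2 called 0 members and 139 genes in all at an adjusted p under 0.05 and counted 1 member at an unadjusted p under 0.05. The count of members at an unadjusted p under 0.05 was 5 without LD-PM2.5 replicate 1, 2 without LL-PM2.5 replicate 1, and 1 when replicate 2 of LL-PM2.5 was the one left out. Over all genes these fits gave 1349, 1596 and 686, against 1044 with all libraries.

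Sds and Got1, enzymes of amino acid breakdown, were higher in LL-PM2.5 than in LD-PM2.5 before adjustment. Sds, serine dehydratase, stood at 188 and 354 FPKM for LL-PM2.5, 56.0 and 126 for LD-PM2.5, 77.3 and 154 for LL-FA, and 78.1 and 105 for LD-FA, with a log2 fold change of 1.60 ± 0.40 (edgeR adjusted p = 0.4009). Got1 was at 112 and 161 FPKM for LL-PM2.5, 94.0 and 59.6 for LD-PM2.5, 62.7 and 79.7 for LL-FA, and 73.3 and 73.0 for LD-FA, with 0.89 ± 0.27 (edgeR adjusted p = 0.4856), or 0.52 with an unadjusted p above 0.05 without LL-PM2.5 replicate 2. H6pd was lower at -0.70 ± 0.17 (edgeR adjusted p = 0.4009) and Foxo1 at -0.55 ± 0.17 (adjusted p = 0.4874). The change of Foxo1 was -0.29 with an unadjusted p above 0.05 without LD-PM2.5 replicate 2. By list, 3 of 17 genes for pyruvate and gluconeogenesis were higher and 1 was lower, 1 of 15 for fructose, ChREBP and the pentose phosphate route was higher and 1 lower, and 1 of 15 regulators was lower. The lists of other glycolytic steps and of glycogen had 0 genes at an unadjusted p under 0.05.

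Averaged over both kinds of air, constant light against the light/dark cycle gave 0 members at an unadjusted p under 0.05, against 5.66% of all genes, 2.18% higher and 3.48% lower, and 0 members and 0% of all genes after adjustment. In FPKM Ldha was the 1 member whose 4 constant-light libraries were all below its 4 light/dark libraries, and in CPM there was 0 such member, against 2.24% of all genes in FPKM, 0.680% higher and 1.56% lower, and 3.18% in CPM. The gap between its groups was small, with 482 FPKM in the highest constant-light library and 483 FPKM in the lowest light/dark library. Of 31 members 8 had a positive log2 fold change, against 51.3% of all genes, and the median was -0.044 over the members and 0.0047 over all genes. The count at an unadjusted p under 0.05 was 4 without LD-PM2.5 replicate 1, 2 without its partner, and 1 without either LL-PM2.5 library, LL-FA replicate 1 or LD-FA replicate 2. Over all genes these fits gave between 480 and 838, against 641 with all libraries. DESeq2 called 0 members and 92 genes in all at an adjusted p under 0.05 and counted 1 member at an unadjusted p under 0.05.

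Outside the list, Sds was at 0.996 ± 0.28 in this average (edgeR adjusted p = 0.6515) and Dlat, a subunit of pyruvate dehydrogenase, at 0.29 ± 0.10 (adjusted p = 0.8425). Irs1 was at -0.33 ± 0.10 (edgeR adjusted p = 0.7777) and Irs2 at -0.64 ± 0.22 (adjusted p = 0.8425). With single libraries left out, Dlat had an unadjusted p under 0.05 in 3 of 8 fits and Irs1 and Irs2 in 5 of 8. By list, 3 of 17 genes for pyruvate and gluconeogenesis and 1 of 18 for glycogen were higher, and 1 of 15 for fructose, ChREBP and the pentose phosphate route and 3 of 15 regulators were lower.

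The interaction asks whether the PM2.5 effect under constant light differed from that under a light/dark cycle. G6pc, Pfkfb3 and Pfkfb1 had an unadjusted p under 0.05, 3 of 31 members against 4.88% of all genes, 1.97% higher and 2.91% lower, and 0 members and 0% of all genes passed after adjustment. For G6pc the PM2.5 effect under constant light exceeded that under light/dark by 2.24 ± 0.60 on the log2 scale (SE, edgeR adjusted p = 0.843). Its mean was 151 ± 94.3 FPKM in LL-PM2.5 and 56.8 ± 19.8 in LL-FA, and 106 ± 47.3 FPKM in LD-PM2.5 and 182 ± 2.36 in LD-FA (SD, n = 2 each). The difference lay between 1.53 and 2.73 when single libraries were left out, each at an unadjusted p under 0.05, and 1.53 was the value without LL-PM2.5 replicate 1. DESeq2 gave it an adjusted p of 0.005211, within a range of 2.303e-07 to 0.9999 over the settings, the 1 member among 33 genes it called.

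Both enzymes of fructose 2,6-bisphosphate had the opposite sign. The interaction of Pfkfb3 was -2.25 ± 0.90 (edgeR adjusted p = 0.843). Leaving out LL-PM2.5 replicate 1 gave -3.76 and leaving out its partner -1.53, and its unadjusted p was above 0.05 without LL-FA replicate 2 or without any of the 4 light/dark libraries. That of Pfkfb1 was -0.62 ± 0.24 (edgeR adjusted p = 0.843), with an unadjusted p above 0.05 without LL-PM2.5 replicate 1, LD-PM2.5 replicate 2, LL-FA replicate 2 or LD-FA replicate 1. The count of 3 members became 5 without LD-PM2.5 replicate 1, and 1 without its partner or without LD-FA replicate 1. Over all genes the count of 552 became 1014, 320 and 250. A positive interaction was found in 10 members and 50.4% of all genes. The median interaction was -0.13 over the members and 0.0028 over all genes.

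Of the hormone regulators, Igfbp1 had an interaction of 3.93 ± 1.12 (edgeR adjusted p = 0.843), in the direction of G6pc. It was 2.04 without LL-PM2.5 replicate 2, the library at 56.1 FPKM. H6pd was at -0.75 ± 0.23, Pdp2, a phosphatase that activates pyruvate dehydrogenase, at -0.83 ± 0.30, and Foxo1 at -0.66 ± 0.25 (edgeR adjusted p = 0.843 for each). The value of Foxo1 was -0.41 without LD-PM2.5 replicate 2, and that of Pdp2 was -0.59 without LL-FA replicate 1, both with an unadjusted p above 0.05. By list, 2 of 15 regulators were higher and 1 was lower, and 1 was higher and 1 lower among the 17 genes for pyruvate and gluconeogenesis and among the 15 for fructose, ChREBP and the pentose phosphate route.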

How the data were processed

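The 8 liver RNA-seq libraries, 2 in each of 4 groups, were analysed from the deposited table of replicates. The submitters' processing notes name STAR, Cufflinks, Cuffdiff and the build mm10; the sources used here give no version or strand setting. The authors' table gives, per the file headers, fragments per gene and library as an estimated count, and FPKM made by the authors. Of the nonzero deposited counts 97.4% were within 0.01 of whole, and all were rounded. The 47 genes with a status other than OK in any library were left out, no member among them. Ensembl identifiers were matched to symbols without their version (381 unmatched), and entries of 1 symbol were added. Genes reaching 1 FPKM in 2 or more libraries were tested with edgeR 4.0.16 (R 4.3.3, limma 3.58.1; quasi-likelihood test, TMM scaling, 4 group means, 4 residual degrees of freedom), with Benjamini-Hochberg adjustment over all 11316 genes at 0.05. The biological coefficient of variation was 21.4%, with 3.46 prior degrees of freedom. The standard error was computed as the size of the log2 fold change over the root of F. Tests were two-sided. The test was also tried on simulated counts, with no outcome reported here. DESeq2 1.42.0 served as an alternative.

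The members and lists were chosen with earlier results of these data known. All 32 members get their FPKM by group. A log2 fold change is given for members with an unadjusted p under 0.05, at most 8 per comparison, and for at most 4 other listed genes per comparison, smallest p first. Promoters are from RefSeq (GRCm38.p6), and copies and overlapping exons from GENCODE vM21 with BLAST 2.17.0. Same-numbered replicates were not taken as pairs. A depth of 22215000 to 31819000 fragments, with 2 libraries a group, limits the precision.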

Additional observations from a re-analysis of the deposited data

How the results depend on the processing

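Of 39 named fold changes, 0 reversed over 16 other settings, of which the filter at 5 FPKM gave a value for 29. All 39 were picked for an unadjusted p under 0.05 in the same libraries. A kept sign was therefore likely from the start and is no separate support for a direction. At an adjusted p under 0.05, 23 passed without the filter on low values and 15 with DESeq2, and 0 passed when any library was left out. Without the filter 23030 genes were tested and the prior degrees of freedom were 76.3, against 3.46 with it. The counts of members follow the order PM2.5 in light/dark, PM2.5 in constant light, constant light in filtered air, constant light in PM2.5, PM2.5 averaged, constant light averaged and interaction. At an adjusted p under 0.05 they were 4, 2, 2, 1, 2, 2 and 2 without the filter and 1, 1, 1, 0, 1, 0 and 1 with DESeq2, against 0 in each as reported. All genes then gave 647, 476, 201, 358, 696, 291 and 239 without the filter and 151, 58, 43, 139, 161, 92 and 33 with DESeq2. At an unadjusted p under 0.05 they were 6, 6, 3, 8, 8, 6 and 7 without the filter, 5, 3, 2, 1, 1, 1 and 3 with DESeq2, and 4, 3, 3, 0, 2, 1 and 3 with a replicate block, against 2, 3, 2, 0, 1, 0 and 3 as reported. All genes then gave 2374, 1484, 960, 1780, 2355, 1342 and 1348 without the filter, 1192, 565, 317, 984, 1096, 606 and 580 with DESeq2, and 1085, 512, 265, 925, 1023, 589 and 484 with the block, against 1240, 547, 310, 1044, 1136, 641 and 552 as reported. Constant light in filtered air gave 1 with the filter at 5 FPKM, of 199 genes in all, against 310 genes as reported. With that filter 6903 genes were tested. Leaving out libraries, singly or LD-FA replicate 1 together with LL-FA replicate 1, also moved counts of members at an unadjusted p. The counts over all genes moved as well. Such fits leave 1 library in a group, so their counts are not listed in this section. The cause of these shifts was not tested. Whether the replicate numbers pair the samples is not in the labels. Deviations of same-numbered libraries correlated between -0.59 and 0.33 over the 6 pairs of groups, across genes. With only 1 deviation per gene and group, these values cannot decide it. No scaling moved the median of all genes by more than 0.1 on the log2 scale. On CPM in place of FPKM, a scale added after seeing the data, the groups did not overlap in 10, 12, 7, 7, 1 and 0 members. In FPKM these counts were 13, 7, 7, 8, 1 and 1, and the interaction had none to count. Over all genes the shares were 49.4%, 30%, 30.2%, 39.3%, 5.68% and 3.18% in CPM. They were 43.4%, 21.2%, 21.9%, 30.7%, 3.40% and 2.24% in FPKM. Low counts limit Gapdh and Ppp1r3g.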
